A study of Arabidopsis thaliana with 4 samples.

Results

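The transcripts described here are those of the autophagy (ATG) genes in roots of Arabidopsis thaliana, accession Col-0, after potassium was withheld. Members were all probe sets with exactly 1 gene in the platform annotation and a symbol of ATG followed by a digit. There were 8 of them, among 13513 probe sets with exactly 1 gene and 22746 probe sets in all. They were ATG8B (255283_at, AT4G04620), ATG8C (264285_at, AT1G62040), ATG8D (265510_at, AT2G05630), ATG8E (266106_at, AT2G45170), ATG8F (245391_at, AT4G16520), ATG8G (251393_at, AT3G60640), ATG8H (258880_at, AT3G06420) and ATG3 (247542_at, AT5G61500). All 8 reached the 40th percentile of each array's signals, which lay between 29.4 and 30.4, and the lowest signal among them was 94.97, so no member was lost to the filter on dim probe sets. The rule takes in no other ATG gene, such as ATG1, ATG5, ATG7, ATG9 or ATG18, and those are not analysed here. The question asked of them was whether potassium starvation moves autophagy transcripts.

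The plants were 4 to 5 weeks old and grew hydroponically, with their roots in liquid nutrient solution. The 4 groups were potassium-starved roots at 96 h, potassium-starved roots at 48 h, control roots at 96 h and control roots at 48 h after transfer. The starvation solution held phosphoric and nitric acid where the control solution held the potassium salts, and control plants were transferred as well. Each group was a mix of roots on 1 Affymetrix ATH1 array, and no label names separate cultures, so no group has a replicate and each difference within a time stands without a test.

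Autophagy carries cytoplasm and organelles to the vacuole in double-membraned vesicles, where they are broken down and their building blocks are reused. Its central marker is ATG8, a small ubiquitin-like protein that is joined to a lipid of the growing membrane and also docks cargo receptors. ATG7 activates ATG8 and ATG3, the E2-type conjugating enzyme, passes it to the lipid, after the protease ATG4 has exposed the terminal glycine of ATG8. In Arabidopsis a gene family encodes ATG8, and ATG8H and ATG8I form a branch of their own whose proteins end in that glycine without further processing. Transcripts of several ATG8 genes are known to accumulate in Arabidopsis when carbon or nitrogen is withheld.

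Values are MAS5 signals, a linear intensity per probe set on an array scaled as a whole, and differences are on the log2(signal + 16) scale. Median signals were 46.8 to 47.9 over the 4 arrays. A control probe set for 25S ribosomal RNA measured 795 on the starved 48 h array and 58.7 to 73.1 on the other 3 arrays. The control 96 h array stood apart too, with 856 for a CreX-3 hybridisation control, against 1495 to 1758 on the other 3, and 2266 for a ubiquitin control, against 3074 to 3521. In a mix of whole roots, fewer cells of a type and less RNA per cell cannot be told apart. Signals of different probe sets are not compared with each other, since each has its own brightness.

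None of the 7 ATG8 genes and ATG3 was called for starvation by the test over all probe sets. limma called 0 of the 8 members for the mean difference of starved and control roots over both times, where it called 0.193% of all 13998 tested probe sets, 0.121% as higher and 0.0714% as lower. At an unadjusted p below 0.05 the count was also 0 of 8, beside 7.39% of all tested. For 8 members both counts are near those shares, so they do not show that the members were unmoved. The 8 mean differences lay between -0.13 (ATG8B) and 0.31 (ATG8G), that is, from 0.915-fold to 1.24-fold of control for signal + 16. The 95% confidence intervals of all 8 crossed 0. The lowest interval end was 0.735-fold (ATG8B) and the highest 1.55-fold (ATG8G). Only 1 residual degree of freedom comes from each probe set itself, the difference of its starvation effect between the times, and most of the error is borrowed from the other probe sets.

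ATG8G was the member farthest above control. Its signal was 123 in starved and 106 in control roots at 96 h, and 138 in starved and 97.5 in control roots at 48 h. Both starved arrays lay above both control arrays for ATG8G and for no other member (1 of 8, beside 11.6% of all tested probe sets). Its difference was 0.19 at 96 h and 0.44 at 48 h, with a mean of 0.31 ± 0.15 (SE, 2 arrays per solution) and an adjusted p of 0.690 from limma. At 48 h its absolute difference exceeded that of 93.4% of the tested probe sets, and at 96 h that of 55.8%.

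ATG8B was the only member with both starved arrays below both control arrays (1 of 8, beside 13% of all tested). It measured 94.97 in starved and 113 in control roots at 96 h, and 103 in starved and 106 in control roots at 48 h. The differences of -0.21 and -0.04 gave a mean of -0.13 ± 0.15 (SE), with an adjusted p of 0.996 from limma.

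**Figure D1:**
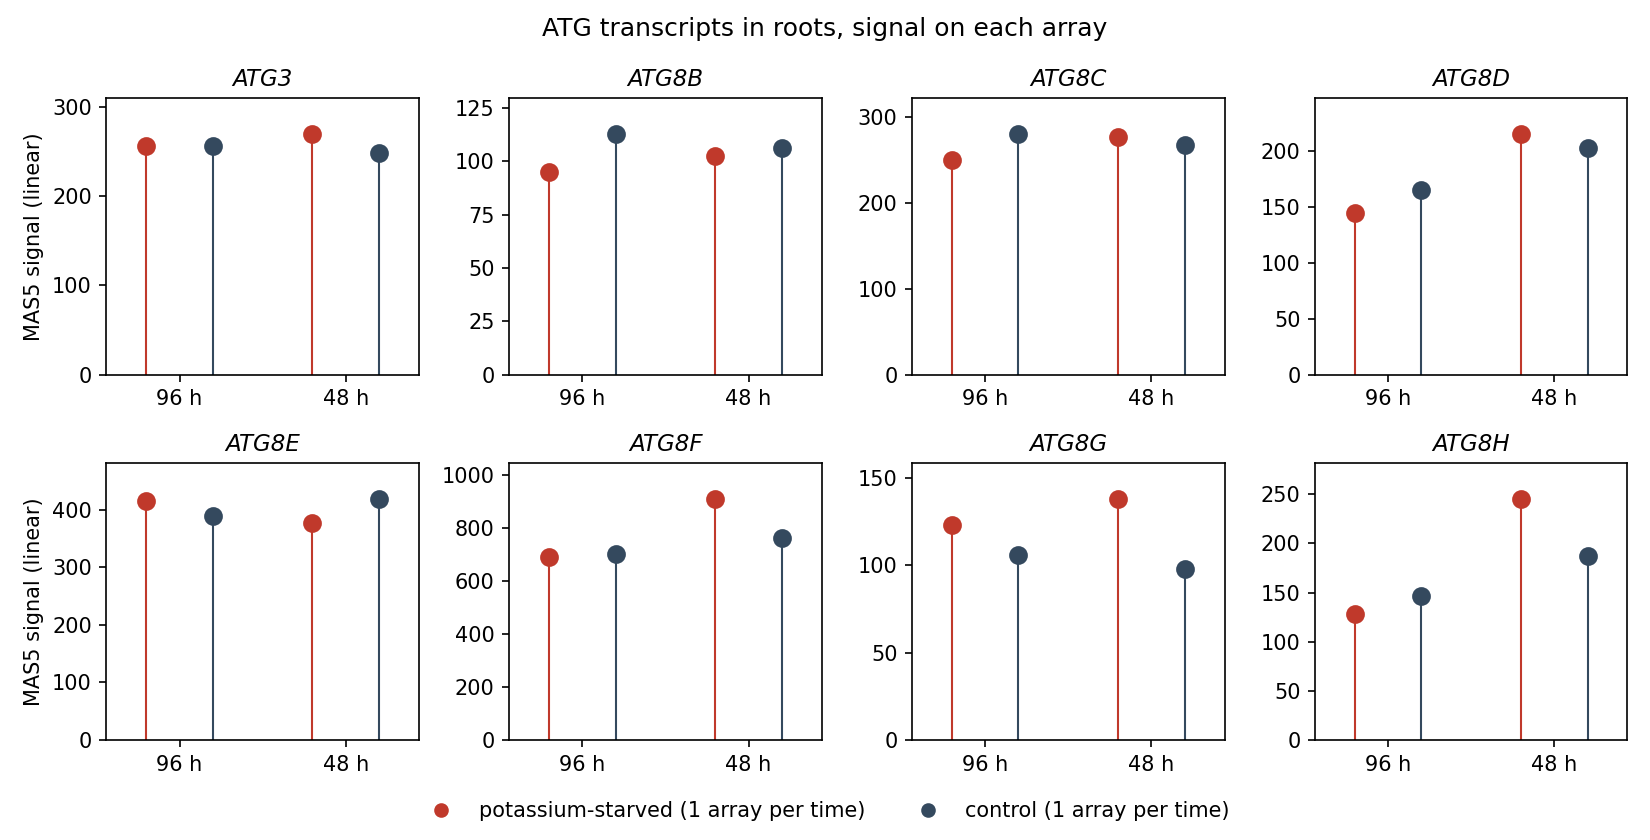
MAS5 signal (linear scale, from 0) of the 8 ATG probe sets on each array, with starved roots (red) left of control roots (dark blue) within each time, 1 array per point. ATG8G stands above control at both times, and ATG8H ranges from 128 in starved roots at 96 h to 245 in starved roots at 48 h.

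ATG8H, of the branch whose proteins need no trimming, had the widest range of the members. It measured 128 in starved and 147 in control roots at 96 h, and 245 in starved and 187 in control roots at 48 h. Starved roots thus held both its highest and its lowest signal, and the highest was 1.92-fold the lowest. The starvation difference was -0.18 at 96 h and 0.36 at 48 h, and the 48 h difference exceeded in size that of 88.8% of the tested probe sets. Their mean, 0.09 ± 0.16 (SE), joined opposite directions and had an adjusted p of 1.00 from limma.

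ATG8F and ATG8D had the same order of arrays as ATG8H. ATG8F measured 693 in starved and 704 in control roots at 96 h, and 909 in starved and 765 in control roots at 48 h. ATG8D measured 145 in starved and 165 in control roots at 96 h, and 215 in starved and 203 in control roots at 48 h. For each of these 3 genes the starved 48 h array was the highest and the starved 96 h array the lowest. The starvation differences were -0.02 at 96 h and 0.25 at 48 h for ATG8F, and -0.18 and 0.08 for ATG8D.

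The signals of ATG8C, ATG8E and ATG3 stayed close together on the 4 arrays. ATG8C measured 250.4 in starved and 280.0 in control roots at 96 h, and 276 in starved and 267 in control roots at 48 h. ATG8E measured 415 in starved and 388 in control roots at 96 h, and 377 in starved and 418 in control roots at 48 h. ATG3, the conjugating enzyme, measured 256 in both starved and control roots at 96 h, and 269.7 in starved and 248 in control roots at 48 h. The highest signal was 1.09-fold the lowest for ATG3, 1.11-fold for ATG8E and 1.12-fold for ATG8C. Of the tested probe sets, 3.57% had a smaller range on the log2 scale than ATG3, 6.76% a smaller range than ATG8E and 7.62% a smaller range than ATG8C. The range was wider for ATG8H (0.86), ATG8D (0.53), ATG8G (0.44) and ATG8F (0.38), and ATG8B lay between with 0.21.

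The starvation differences differed in direction between the times. At 96 h 5 members were lower in starved than in control roots, ATG8E and ATG8G were higher, and ATG3 was level, its sign depending on the normalization. Counted with ATG3 on the lower side, 6 of 8 were lower, beside 50.1% of all tested probe sets, and 2 of 8 higher, beside 49.9%. At 48 h 6 of 8 members were higher in starved roots, beside 47.3% of all tested. The median difference of the members was -0.09 at 96 h and 0.10 at 48 h, beside 0.00 and -0.01 over all tested probe sets. With ATG3 again counted as lower at 96 h, 5 members were below control at 96 h and above it at 48 h (23.4% of all tested), and ATG8E alone was above control at 96 h and below it at 48 h (26%). ATG8G alone was above control at both times (23.9%) and ATG8B alone below it at both (26.7%). The difference was lower at 96 h than at 48 h for 7 of 8 members, all but ATG8E, beside 48.3% of all tested. All members share the same 4 arrays, so these counts are not independent observations. The starved 48 h array, which stood apart in 25S ribosomal RNA, was the highest of the 4 for 5 members (23.5% of all tested), and the starved 96 h array was the lowest for 5 (27.7%). All differences at 96 h use the control 96 h array, which stood apart in the CreX-3 and ubiquitin controls. The part of either array in these counts was not tested. No member reached 1.5-fold of signal + 16 in either direction at either time, a size passed by 5.09% of all tested probe sets at 96 h and by 2.33% at 48 h.

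**Figure D2:**
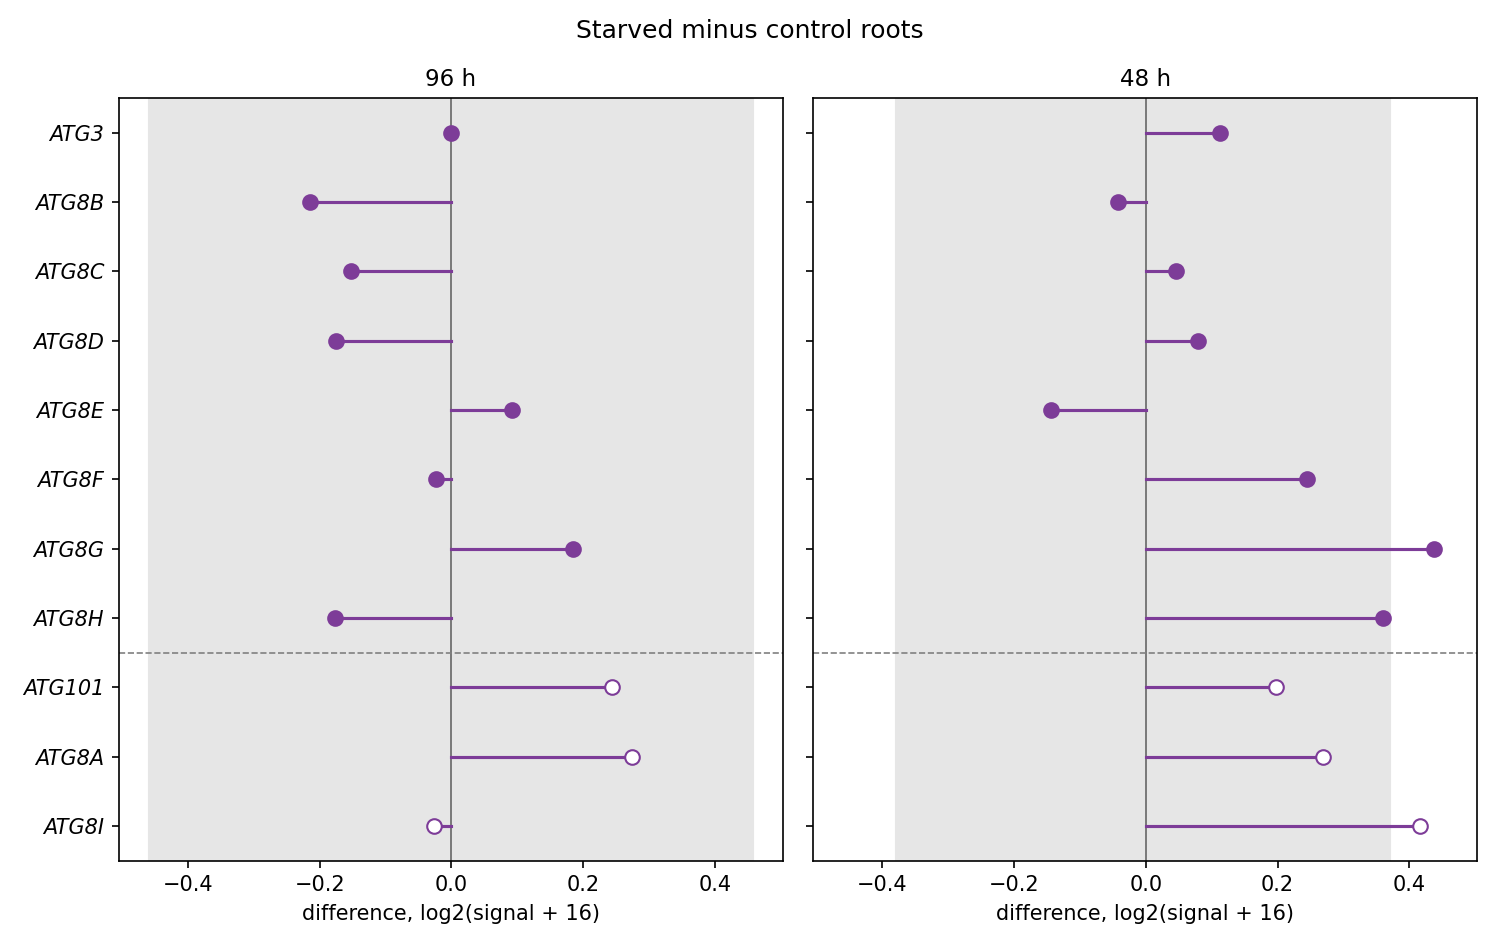
Starved minus control roots on the log2(signal + 16) scale at 96 h (left) and 48 h (right) for the 8 members (filled points) and, below the dashed line, 3 further family members that the annotation lists under other names (open points). The grey band spans the 5th to 95th percentile of all 13998 tested probe sets, and the points outside it are ATG8G and ATG8I at 48 h.

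Further probe sets belong to the same family by their RefSeq symbols or synonyms, although the platform annotation gives them other names. They were ATG8A (254346_at, AT4G21980, listed as APG8A), ATG8I (257293_at, AT3G15580, listed as APG8H) and ATG101 (247045_at, AT5G66930, listed by its locus), a subunit of the ATG1 kinase complex that starts autophagy. ATG8A measured 614 in starved and 505 in control roots at 96 h, and 696 in starved and 575 in control roots at 48 h. ATG101 measured 215 in starved and 179.6 in control roots at 96 h, and 201 in starved and 174 in control roots at 48 h. Both were above control at each time by similar amounts, with differences of 0.27 and 0.27 for ATG8A and 0.24 and 0.20 for ATG101. ATG8I, the closest relative of ATG8H, measured 569 in starved and 580.1 in control roots at 96 h, and 707 in starved and 526 in control roots at 48 h, and its differences were -0.03 and 0.42. None of the 3 passed the limma test for starvation, beside 0.193% of all tested probe sets. The adjusted p-values from limma were 0.798 for ATG8A, 0.880 for ATG101 and 0.950 for ATG8I. With these 3 the family had 11 probe sets and a median difference of -0.02 at 96 h and 0.20 at 48 h.

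The second comparison set 96 h against 48 h. ATG8H was lower at 96 h and was the only member called by limma (1 of 8, beside 7.35% of all tested probe sets, 4.11% called higher and 3.24% called lower). For 8 members that count is near the share, so it does not set the members apart from other probe sets. In starved roots it measured 128 at 96 h against 245 at 48 h, and in control roots 147 at 96 h against 187 at 48 h. The changes were -0.86 in starved and -0.32 in control roots on the log2(signal + 16) scale. The change in starved roots uses the starved 48 h array, which stood apart in 25S ribosomal RNA. The change in control roots uses the control 96 h array, which stood apart in the CreX-3 and ubiquitin controls. The part of either array in these changes was not tested. The mean change was -0.59 ± 0.16 (SE, 2 arrays per time, 1 of each solution), with a 95% interval from -0.93 to -0.25 and an adjusted p of 0.0356 from limma. As for starvation, most of the error behind that interval is borrowed from the other probe sets, and it does not measure the spread between like cultures. The call was lost in 9 of 14 alternative fits. Among the 5 that kept it, membership by RefSeq name leaves the fit unchanged, so it could not alter the call. With all 4 arrays, adjusted p-values from limma ranged from 0.0324 to 0.223 over the alternatives. The fit without the control 96 h array, counted among the 5, gave a change of -0.68. It set the starved 96 h array alone against both 48 h arrays, with no term for solution. It therefore cannot separate time from starvation and adds no weight. The 3 fits without another array, counted among the 9, also had no term for solution and a single array at 1 time, so they add none either.

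ATG8D and ATG8F also had both 96 h arrays below both 48 h arrays without passing the test, which with ATG8H made 3 of 8 members, beside 26.4% of all tested. ATG8D measured 145 at 96 h against 215 at 48 h in starved roots, and 165 at 96 h against 203 at 48 h in control roots. Its mean change was -0.40 ± 0.15 (SE), with an unadjusted p of 0.0178 and an adjusted p of 0.132 from limma. ATG8D and ATG8H made 2 of 8 members at an unadjusted p below 0.05, both lower, beside 21% of all tested in either direction and 10.3% lower. ATG8F measured 693 at 96 h against 909 at 48 h in starved roots, and 704 at 96 h against 765 at 48 h in control roots, with a mean change of -0.25 ± 0.16 (SE) and an adjusted p of 0.387. The other 5 members had mean changes between -0.03 and 0.02, with adjusted p-values from 0.930 to 0.984.

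In starved roots 7 of 8 members were lower at 96 h than at 48 h (50.1% of all tested), and in control roots 4 of 8 (51.8%). The median change of the members was -0.14 in starved and -0.03 in control roots, beside 0.00 and -0.01 over all tested probe sets. A change of at least 1.5-fold in signal + 16 was seen for 1 of 8 members in starved roots, ATG8H, which was lower, beside 10.3% of all tested in either direction and 4.96% lower, and for 0 of 8 in control roots, beside 7.91%. These counts rest on the same starved 48 h and control 96 h arrays, whose part in them was not tested. Whether the change differed between the solutions could not be tested with a single array in each group.

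**Figure D3:**
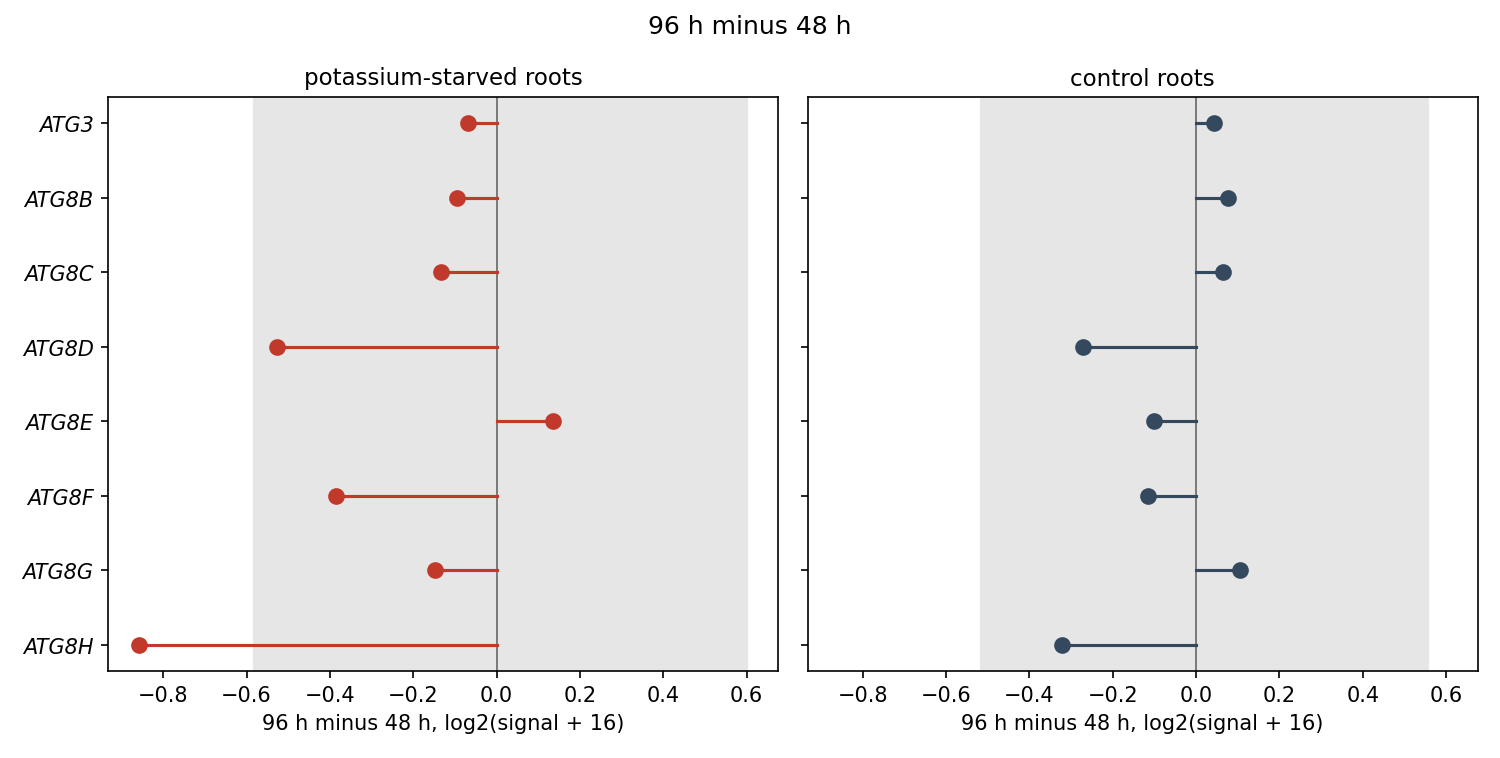
Change of the 8 members, 96 h minus 48 h on the log2(signal + 16) scale, in starved roots (left, red) and control roots (right, dark blue), with the 5th to 95th percentile of all tested probe sets in grey. ATG8H in starved roots, at -0.86, is the point outside the band, and ATG8H, ATG8D and ATG8F lie below 0 in both solutions.

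Other transcripts that differed between the harvests are set beside the lower ATG8H signal at 96 h. All 3 measured genes of 11 listed hypoxia genes rose at 96 h and were called by limma, beside 4.11% of all tested probe sets called higher. Their summed signal was 2038 and 1239 at 96 h in starved and control roots, against 388 and 386 at 48 h. Of 16 green tissue markers 2 were measured, the photosynthesis genes AT2G39730 and AT1G32060, and both rose and were called higher by limma. Their summed signals were 251 and 321 at 96 h in starved and control roots, against 177 and 176 at 48 h. Of 8 root hair markers 5 were measured, and all 5 were lower at 96 h in both solutions. limma called 3 of the 5 for time, beside 3.24% of all tested probe sets called lower. The summed signals of the 5 were 1983 and 1372 at 96 h in starved and control roots, against 2536 and 2049 at 48 h. Their median starvation difference was 0.47 at 96 h and 0.46 at 48 h, and limma called 0 of the 5 for starvation, beside 0.193% of all tested. The lowest signals among these markers were those of the root hair gene XTH26 at 96 h, 24.3 in starved and 14.2 in control roots. Both lay below the 40th percentile of their array (30.4 and 29.4). The part of these markers in the ATG8H result or in the starvation differences of the members was not tested. The 7 listed marker genes of other root cell types had no probe set with a single listed gene, so the tissue label was checked on the root hair genes alone.

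**Figure D4:**
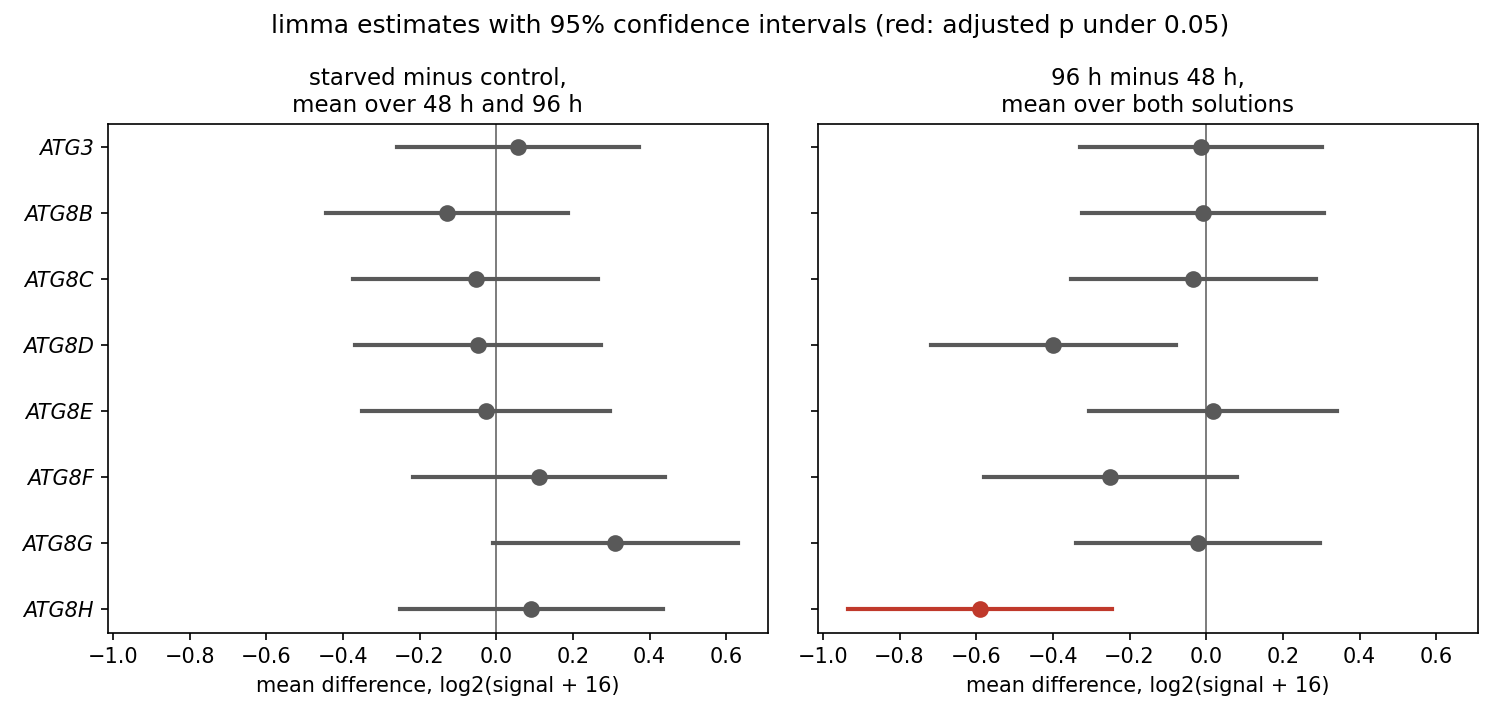
limma mean differences with 95% confidence intervals for the 8 members, starved minus control over both times (left) and 96 h minus 48 h over both solutions (right), on the log2(signal + 16) scale. All intervals cross 0 on the left, and on the right those of ATG8D and ATG8H do not, of which ATG8H (red) passed the adjusted threshold.

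Genes that act with the ATG proteins were given by lists. Of 25 autophagy partners without an ATG name, 11 had a probe set of their own and 9 passed the filter. Of the 9, 0 were called for starvation or for time, beside 0.193% and 7.35% of all tested probe sets. For lists this short such counts are near those shares, so they do not show that the genes were unmoved. Their median starvation difference was -0.05 at 96 h and 0.00 at 48 h. SH3P2 (AT4G34660), a membrane-shaping protein that binds autophagosomes, measured 69.3 in starved and 82.9 in control roots at 96 h, and 92.9 in starved and 54.3 in control roots at 48 h, so its differences were -0.21 and 0.63. VPS38 (AT2G32760), a subunit of a lipid kinase complex, had differences of -0.08 and -0.31, and the endoplasmic reticulum protein ORM2 (AT5G42000) had 0.24 and 0.12. TRAF1B (AT1G04300), which takes part in ATG protein turnover, had the widest change with time among the 9, a mean of 0.44 with an adjusted p of 0.0877 from limma.

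Of 13 genes for the TOR and SnRK1 kinases and their subunits, which hold autophagy down and promote it, 4 passed the filter. They were RAPTOR1B and the SnRK1 subunits KINB1, KINB2 and KINB3, so no gene for either kinase itself was analysed. Of the 4, 0 were called for starvation or for time, beside 0.193% and 7.35% of all tested probe sets, which again does not show that they were unmoved. The widest difference was that of RAPTOR1B (AT3G08850), which presents substrates to TOR. It measured 120.3 in starved and 189 in control roots at 96 h, and 110.4 in starved and 162 in control roots at 48 h. Both starved arrays were below both control arrays, with differences of -0.59 and -0.49, a mean of -0.54 and an adjusted p of 0.201 from limma. KINB1 (AT5G21170), a beta subunit of SnRK1, had differences of -0.43 and -0.11.

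Vacuolar proteases, which degrade what autophagy delivers, had 6 of 11 listed genes past the filter. None was called for starvation, beside 0.193% of all tested probe sets, and their median difference was 0.05 at 96 h and 0.13 at 48 h. The vacuolar processing enzyme gene BETA-VPE (AT1G62710) rose with time by a mean of 0.85 (adjusted p = 0.00477 from limma). It was 1 of 6 called higher, beside 4.11% of all tested probe sets. It measured 179 at 96 h against 70.7 at 48 h in starved roots, and 120.1 at 96 h against 78.6 at 48 h in control roots. The other 5 did not pass, among them ALPHA-VPE (AT2G25940), at 51.9 in starved and 40.9 in control roots at 96 h and 47.3 in starved and 37.5 in control roots at 48 h. The 7 listed regulators of ATG transcription and 6 sugar starvation genes had no probe set with a single listed gene and are not analysed here.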

How the data were processed

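Root RNA was measured on 4 single-colour arrays, 1 per group, grouped by their titles. The deposited intensity of each probe set is a MAS5 signal computed by the authors, per the submitters' processing notes. Which version and settings they ran is not given in any label. On every array the 2% trimmed mean equalled 100.01, so the deposited arrays were on one scale. The number of arrays limits the precision, and p-values do not measure the spread between like cultures.

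The 64 control probe sets were set aside. A 2% trimmed mean of 100 was set on each array, and log2(signal + 16) was tested with limma 3.58.1 in R 4.3.3 (lmFit, eBayes with an intensity trend, solution and time as terms) for 13998 probe sets at or above the array's 40th percentile on at least 2 of 4 arrays. The threshold was 0.05 after Benjamini-Hochberg adjustment over all of them. Fold changes understate those of dim probe sets.

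Names came from the platform annotation, and 8730 probe sets have no gene listed there. All 8 members matched a RefSeq gene (TAIR10.1) by Entrez identifier. All have identifiers ending in a plain _at, and cross-hybridisation between ATG8 copies was not tested. Members, the 9 gene lists (104 genes) and the rule for naming genes were chosen with earlier results of these data known. That rule named every called member, the 6 highest and lowest for starvation, the 6 widest for time and every ATG8 gene, which took in all 8, and up to 3 genes per comparison from each list. The 1.5-fold size and the counts of highest and lowest arrays were chosen after the values were seen. Alternatives covered the pseudocount, filter, normalization, membership, model terms, intensity trend and each array left out.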

Additional observations from a re-analysis of the deposited data

Results flagged for a closer look

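For 6 members the starvation difference had opposite signs at the 2 times, each from 1 starved and 1 control array, and the difference between the times was not tested. On the log2 scale the difference at 96 h minus that at 48 h was -0.54 for ATG8H, -0.27 for ATG8F, -0.25 for ATG8D, -0.20 for ATG8C and -0.11 for ATG3, whose 96 h difference was 0 to 2 decimals, so that its sign carries no weight. For ATG8E it was 0.24, from 0.09 at 96 h and -0.14 at 48 h. Over all tested probe sets 23.4% were lower than control at 96 h and higher at 48 h, and 26% the opposite.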

How the results depend on the processing

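No member was called for starvation in any of the 14 alternatives. Unfiltered and with only the tested term, no probe set at all was called for starvation, so those fits say nothing about the members. With an array left out, a solution kept a single array, so those fits add no weight either. The call of ATG8H for 96 h against 48 h was kept in 5 of the 14 alternatives (pseudocount 64, quantile normalization, membership by RefSeq name, no intensity trend, and without the control 96 h array). Membership by RefSeq name leaves the fit unchanged, so it could not alter that call. Without the control 96 h array, the starved 96 h array was set against both 48 h arrays with no term for solution. That fit therefore adds no weight. The members called for time numbered 0 with a pseudocount of 1, unfiltered, filtered at the 60th percentile, after cyclic loess normalization, with equal medians and with only the tested term, where adjusted p-values of ATG8H from limma were 0.0742, 0.223, 0.0651, 0.0712, 0.0810 and 0.0997, and 2 members had an unadjusted p below 0.05 in each. With each array left out the number was 0 to 1. Its direction was lower at 96 h throughout (-0.77 to -0.41), and the cause of the lost calls was not tested, except that arrays left out also took the second term from the model. Without an array in turn, starvation differences that changed sign ranged from -0.34 to 0.52 for ATG8H, -0.081 to 0.30 for ATG8F, -0.31 to 0.22 for ATG8D, -0.12 to 0.013 for ATG8C and -0.094 to 0.041 for ATG8E. Changes with time that did so ranged from -0.069 to 0.043 for ATG3, -0.24 to 0.20 for ATG8G, -0.12 to 0.10 for ATG8B, -0.11 to 0.042 for ATG8C and -0.056 to 0.089 for ATG8E. By RefSeq name (11 probe sets) the median starvation difference was -0.02 at 96 h, against -0.09, and 0.20 at 48 h, against 0.10. The median change of control roots with time was 0.015 after cyclic loess and 0.043 by RefSeq name, against -0.029. Calls over all probe sets were 0 to 28 for starvation, against 27, and 23 to 1123 for time, against 1029. No paired analysis was possible because all 4 arrays carry replicate number 1, so that number separates no pairs, and time was already a term of the model. Each group had a single array, and all member signals were above the filter.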
